A study of Mus musculus with 6 samples.

Results

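The genes described here are 46 genes of epithelial identity, cell junctions and cell polarity, taken by symbol from the 56748 genes of each library's table. All 46 matched a row, and 45 had enough counts to be tested, among 16737 genes tested in all. The exception was Cldn6, a claudin of early and embryonic epithelia, with 0 to 6 counts per library. RNA came from mouse uterus on day 4 of pregnancy at 1600 h, in 3 libraries labelled Control, genotype WT, and 3 labelled Zip10 cKO, genotype Zip10 conditional knockout. Zip10, encoded by Slc39a10, is a zinc importer of the plasma membrane, and the series describes its loss as uterine-specific. The names of the deposited control tables may refer to floxed alleles, so whether the controls carried a floxed Zip10 allele is not settled here. No label states the driver of the deletion, the strain or the age of the mice. The labels do not say that each library came from a separate animal, so p-values measure the spread between these libraries.

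Epithelial cells are held together by belts of junctions. Claudins, occludin and their scaffolds seal the tight junction near the apical surface, E-cadherin forms the adherens junction, and desmosomes tie the keratin filaments of neighbouring cells. The Crumbs and Par complexes mark the apical side, and transcription and splicing factors such as Grhl2, Ovol2, Elf3, Ehf and the Esrp proteins keep the program on. In the uterus the luminal epithelium is the layer an embryo first meets, and its polarity and junctions are remodelled around implantation.

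Most of these genes were measured slightly lower in the Zip10 cKO libraries, and none passed the test. Of 45 tested members, 38 (84.4%) had a log2 fold change of Zip10 cKO over control below 0, where 50.6% of all tested genes did. The members' median log2 fold change was -0.25, against -0.00 over all genes. At an adjusted p under 0.05, edgeR called 0 members and 0% of all genes, and the smallest adjusted p of a member was 0.747. DESeq2 and limma-voom also called 0 members, and called 0.128% and 0% of all genes. At an unadjusted edgeR p under 0.05 there were 6 members lower (13.3%, against 1.98% of all genes) and 1 higher (2.22%, against 4.48%). Epcam, Esrp1, St14, Cldn1, Cldn3 and Cldn23 were the lower members, and Krt7 was the higher one. For 32 members the 95% interval of the fold lay within a 2-fold change either way.

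**Figure D1:**
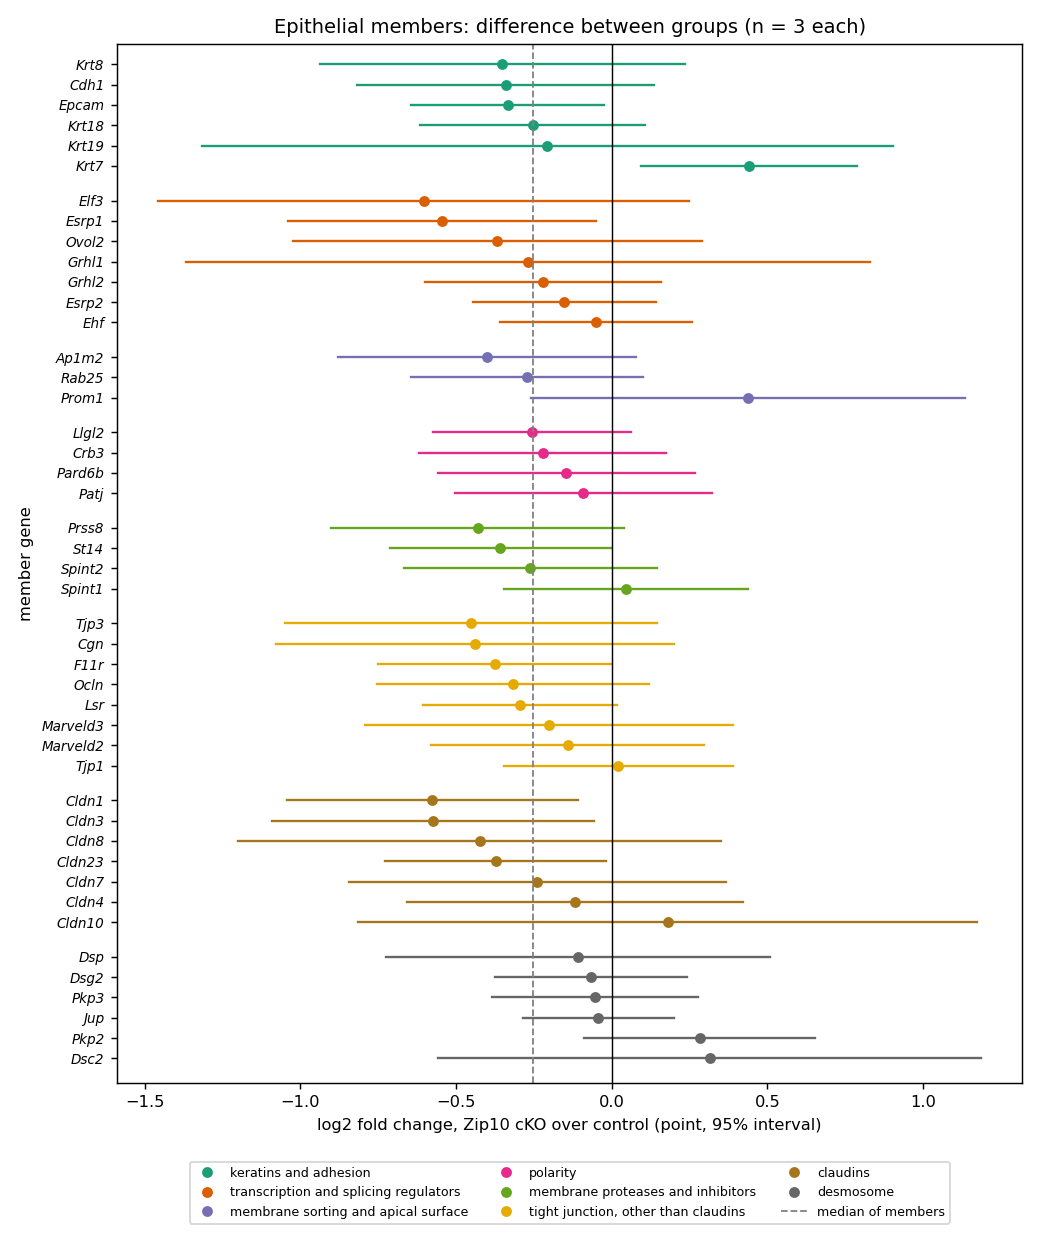
Log2 fold change of Zip10 cKO over control (x axis) for the 45 tested members (y axis, grouped and coloured by role), with edgeR's 95% interval as a line; the dashed line is the members' median of -0.25. Most points lie left of 0, Krt7 lies to the right with an interval from 0.10 to 0.79, and 4 of 6 desmosome genes lie within 0.11 of 0.

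The lowest values fell mostly in 1 library. Zip10 cKO library 1 held the lowest CPM (counts scaled to library size) of the 6 for 31 of 45 members (68.9%), against 24.6% of all tested genes. It also stood apart over all genes: multidimensional scaling placed it at -1.58 on its leading axis and the other 5 libraries between -0.02 and 0.77. Mitochondrial genes held 3.43% of its counts and 4.50% to 4.84% in the other 5. Over all genes the median log2 fold change rose from -0.11 in the shortest of 5 length classes to 0.11 in the longest. The members' medians in these classes were -0.26, -0.31, -0.18, -0.22 and -0.09, from 5 to 14 members each. The part of these in the members' values was not tested. The mean log2 CPM of the 45 members, relative to its mean over the 6 libraries, was 0.18, 0.17 and -0.03 in controls 1 to 3 and -0.37, -0.01 and 0.06 in Zip10 cKO libraries 1 to 3. The groups overlapped, since Zip10 cKO libraries 2 and 3 lay above control 3. Without Zip10 cKO library 1 the median was -0.10, 34 of 45 members (75.6%) were lower, against 51.0% of all genes, and 1 (2.22%) had an unadjusted edgeR p under 0.05, against 4.25% of all genes. Single members moved in the same way, with Epcam at -0.19, Cdh1 at -0.18, Esrp1 at -0.35 and Krt7 at 0.37 on the log2 scale without that library.

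**Figure D2:**
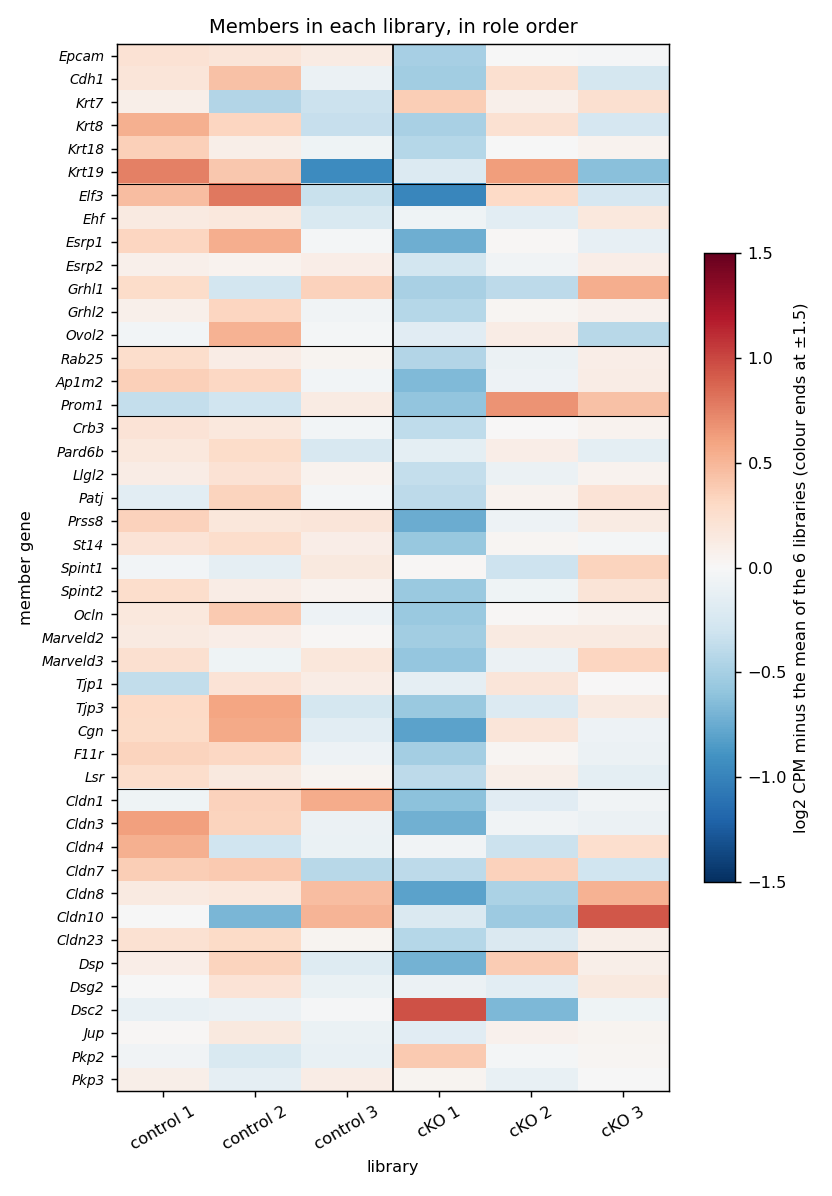
Each row is a tested member in role order and each column a library; colour gives log2 CPM minus the gene's mean over the 6 libraries, red above and blue below. The column of cKO 1 is mostly blue, while Krt7, Dsc2 and Pkp2 are red in it.

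Several lists of markers of other cells also shifted between the groups. Their summed levels overlapped for smooth muscle, macrophages and endothelium, and did not for stroma and lymphocytes. The 8 smooth muscle markers were all higher in the Zip10 cKO fit, with a summed level of 4162 to 8033 TPM (a level scaled to library size and gene length) in controls and 7034 to 11045 TPM in Zip10 cKO libraries. The highest sum was in Zip10 cKO library 1. All 6 macrophage markers were higher too, with sums of 139 to 171 TPM and 161 to 364 TPM. Of 10 stromal markers 7 were higher, with sums of 3042 to 4069 TPM and 4653 to 5388 TPM. In those sums Col3a1, Dcn and Col1a1 had the highest levels, at 1767, 1002 and 730 TPM on average. The 3 lower stromal markers were Hand2 and Hoxa11, both at -0.26 on the log2 scale, and Hoxa10 at -0.16. Groups did not overlap for 2 of the lower stromal markers, Hand2 and Hoxa11, and 3 of the higher, against 5.78% and 6.93% of all genes. The lymphocyte list had the largest median of the marker lists, 0.71, with sums of 55.5 to 71.1 TPM and 84.4 to 109 TPM. In it 7 of 7 were higher, 5 of them without overlap, where 6.93% of all genes were higher without overlap. Endothelial markers lay on the lower side like the epithelial members, 7 of 8 with a median of -0.13 and sums of 513 to 647 TPM and 485 to 563 TPM. No marker of these lists passed the adjusted p of edgeR. Their part in the epithelial values was not tested, and in bulk RNA fewer epithelial cells and less RNA per epithelial cell cannot be told apart. Of 6 blastocyst and trophoblast markers, Cdx2, Nanog and Pou5f1 stayed at or below 0.22 CPM in every library, while Eomes, which lymphocytes also make, was at 5.85 to 10.8 CPM and Tfap2c and Elf5 at 0.380 to 1.93 CPM. Of 6 oviduct markers, Dynlrb2, Pifo and Ccdc153 stayed at or below 0.138 CPM and Foxj1 below 1 CPM, while Ovgp1 was at 24.6 to 48.8 CPM and Tppp3 at 106 to 174 CPM.

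**Figure D3:**
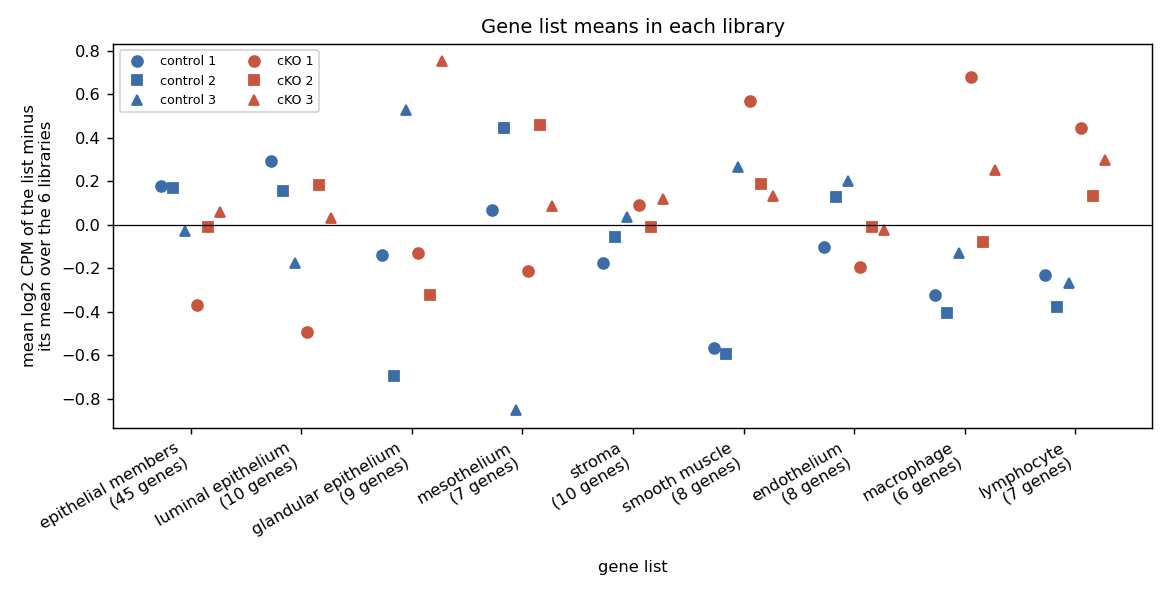
Each point is the mean log2 CPM of a gene list in 1 library relative to its mean over the 6 libraries, with controls in blue and Zip10 cKO in red, and circles, squares and triangles for libraries 1, 2 and 3. Zip10 cKO library 1 lies lowest for the epithelial members (-0.37) and the luminal markers (-0.49) and highest for smooth muscle (0.57) and macrophages (0.68).

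Epcam, the adhesion molecule used to sort epithelial cells, was the keratin and adhesion member with separate groups. It was at 105, 103 and 99.1 CPM in controls 1 to 3 and 64.4, 90.1 and 89.6 CPM in Zip10 cKO libraries 1 to 3. All Zip10 cKO libraries lay below all controls, library 1 by far the most. The fold was 0.793 (95% interval 0.640 to 0.984). Two-sided, the exact permutation test gave p = 0.1, the smallest that 3 against 3 allows. Relative to the mean of the other 44 tested members in the same library, Epcam was lower by 0.14 on the log2 scale, again with groups that did not overlap. Groups that do not overlap occurred for 4 of 45 members on the lower side (8.89%), Epcam, Llgl2, Prss8 and St14, against 5.78% of all genes. On the higher side there was 1 member, Pkp2 (2.22%), against 6.93% of all genes.

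Cdh1 encodes E-cadherin, the adhesion receptor of the adherens junction. Its level was 221, 265 and 184 CPM in controls and 136, 230 and 162 CPM in Zip10 cKO libraries, so that Zip10 cKO library 2 exceeded 2 of the 3 controls. The log2 fold change was -0.34 ± 0.21 (SE). The ratio of Cdh1 to Epcam in TPM was 0.785 ± 0.127 in controls and 0.781 ± 0.143 in Zip10 cKO libraries (SD, n = 3 each).

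Krt8 and Krt18, the keratin pair of simple epithelia, were the keratins with the highest levels, at 115 and 164 TPM on average. Krt8 was at 220, 190 and 120 CPM in controls and 109, 179 and 128 CPM in Zip10 cKO libraries. Krt18 was at 200, 166 and 149 CPM and at 116, 155 and 161 CPM. For both keratins the groups overlapped, with control 3 inside the Zip10 cKO range, and the log2 fold changes were -0.35 ± 0.25 and -0.25 ± 0.16. Krt19, a small keratin of simple epithelia, was at 138, 108 and 42.1 CPM in controls and 70.5, 127 and 52.6 CPM in Zip10 cKO libraries. Its spread within each group was several times the difference between them, a log2 fold change of -0.21 ± 0.47. A pseudogene copy of Krt8 is annotated, and reads that fit both are split between them in the deposited counts.

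Krt7, another keratin of simple and ductal epithelia, went against the rest. Its level was 51.9, 36.0 and 39.0 CPM in controls and 63.1, 51.5 and 57.7 CPM in Zip10 cKO libraries. Only control 1 reached the range of the Zip10 cKO libraries, just above the lowest of them. The fold was 1.36, with a 95% interval from 1.07 to 1.73 (edgeR adjusted p = 0.747), and the log2 fold change stayed between 0.34 and 0.61 with each library left out in turn. In CPM it was highest in Zip10 cKO library 1, where most other members were lowest. In deposited TPM the groups narrowly did not overlap, and Zip10 cKO library 3 was the highest. Krt7 was at 26.2, 18.5 and 20.5 TPM in controls 1 to 3 and 27.9, 27.6 and 30.8 TPM in Zip10 cKO libraries 1 to 3.

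The ratio of Krt7 to Krt18 within a library does not depend on the scaling between libraries. In TPM it was 0.135, 0.105 and 0.133 in controls 1 to 3 and 0.219, 0.172 and 0.178 in Zip10 cKO libraries 1 to 3, with no overlap. The exact permutation test (two-sided) gave p = 0.1, and 0.55 after Benjamini-Hochberg adjustment over the 11 ratios computed. Krt7 over Epcam was 0.259 ± 0.0570 and 0.416 ± 0.0617 (SD, n = 3 each), also without overlap. The other Krt7 ratios overlapped: Krt7 over Krt8 was 0.131 to 0.235 in controls and 0.213 to 0.332 in Zip10 cKO libraries (exact permutation p = 0.2), and Krt7 over Krt19 was 0.180 to 0.523 and 0.235 to 0.607 (exact permutation p = 0.5). Krt8 over Krt18 was 0.714 ± 0.130 and 0.676 ± 0.125. Mesothelium, the outer lining of the uterus, also makes Krt7. Of its 7 markers 5 were higher, with a summed level of 99.1 to 154 TPM in controls and 144 to 150 TPM in Zip10 cKO libraries. Most of each sum was Wt1, at 75.5, 96.1 and 80.2 TPM in controls and 110, 92.1 and 107 TPM in Zip10 cKO libraries. The sum thus mostly followed Wt1, which did not vary as the rest did. The other mesothelial markers were all lowest in control 3, with Upk3b at 6.12 TPM and Msln at 3.47 TPM there. The mean log2 CPM of the 7 markers, relative to its mean over the 6 libraries, was 0.07, 0.45 and -0.85 in controls. In Zip10 cKO libraries 1 to 3 it was -0.21, 0.46 and 0.09. Krt7 was at 51.9, 36.0 and 39.0 CPM in controls 1 to 3 and 63.1, 51.5 and 57.7 CPM in Zip10 cKO libraries 1 to 3. The part of mesothelium in the Krt7 value was not tested.

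**Figure D4:**
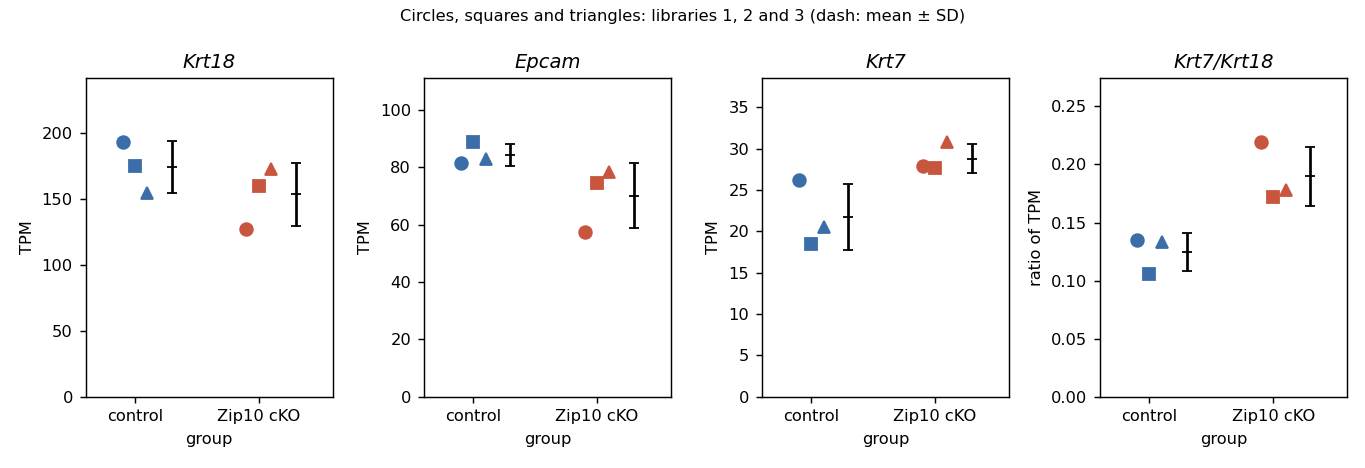
Deposited TPM of Krt18, Epcam and Krt7 and the ratio of Krt7 to Krt18 (y axes) by group (x axes), with circles, squares and triangles for libraries 1, 2 and 3 and dashes with bars for mean ± SD. Krt7 and the ratio lie higher in all Zip10 cKO libraries, the ratio at 0.172 to 0.219 against 0.105 to 0.135.

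Promoter sequence is shown for Epcam, Krt8, Krt18 and Krt7 because the first of these was among the lower members and the last went against its fellow keratins. The sequences are the 250 bases before the gene start from RefSeq on GRCm38.p6, an older build than that of the counts, in the direction of the gene. Capitals mark CACCTG or its reverse complement, the E-box bound by the repressors Zeb and Snail.
Epcam (chr17:87635729-87635978, plus strand): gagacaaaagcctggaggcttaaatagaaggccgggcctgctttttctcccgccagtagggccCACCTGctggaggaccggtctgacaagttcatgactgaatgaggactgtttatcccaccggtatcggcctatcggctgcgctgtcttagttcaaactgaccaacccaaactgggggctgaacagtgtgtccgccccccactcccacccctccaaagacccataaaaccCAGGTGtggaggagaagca
Krt8 (chr15:102004343-102004592, minus strand): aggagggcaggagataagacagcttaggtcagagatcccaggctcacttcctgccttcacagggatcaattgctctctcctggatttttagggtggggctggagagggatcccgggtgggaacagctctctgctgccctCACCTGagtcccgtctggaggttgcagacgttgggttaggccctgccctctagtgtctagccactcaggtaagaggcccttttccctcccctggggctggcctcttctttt
Krt18 (chr15:102027966-102028215, plus strand): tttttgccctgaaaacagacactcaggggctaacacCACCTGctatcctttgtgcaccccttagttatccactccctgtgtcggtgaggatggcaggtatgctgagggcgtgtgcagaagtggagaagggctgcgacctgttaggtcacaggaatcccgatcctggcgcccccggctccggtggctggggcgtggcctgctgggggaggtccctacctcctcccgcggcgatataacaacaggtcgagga
Krt7 (chr15:101412153-101412402, plus strand): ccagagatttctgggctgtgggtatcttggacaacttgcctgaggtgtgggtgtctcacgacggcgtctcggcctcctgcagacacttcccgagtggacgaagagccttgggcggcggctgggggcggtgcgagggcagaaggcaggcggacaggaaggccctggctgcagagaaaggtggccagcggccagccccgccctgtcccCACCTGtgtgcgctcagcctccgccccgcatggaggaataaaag

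The E-box began 187 and 19 bases before the start of Epcam, 111 before Krt8, 214 before Krt18 and 44 before Krt7. Krt7 and the other keratins shown thus all held CACCTG. A second Zeb string, CAGGTA, was in Krt8 and Krt18 and not in Krt7 or Epcam. The part of these strings in the levels was not tested. Of 30 members with a promoter entry, 19 (63.3%) held CACCTG on either strand, where 18.9% of 11813 tested genes with an entry did. Counted by window, since some genes have several starts, it was 21 of 40 (52.5%) against 16.1%. The Grainyhead string AACNGGTT was in 3 members (10%, against 1.96%), the ETS string CCGGAAGT in 4 (13.3%, against 6.06%), AGGAAG in 9 (30%, against 32.5%), the AP-1 string TGANTCA in 5 (16.7%, against 5.77%) and the second Zeb string CAGGTA in 6 (20%, against 8.73%). AACCGGTT, a case of AACNGGTT, the shorter ACCGGTT within it, and CCGGAAGT with AC before it, searched for Elf3 and Ehf, were in 0 members and in 0.237%, 1.46% and 0.643% of tested genes. The strings were searched on both strands and the genes shown were picked with their matches known; a match is not evidence of binding.

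The log2 fold changes of the Zeb and Snail genes lay on both sides of 0, and their part in the members' values was not tested. Among 9 mesenchymal regulators and markers, Zeb1 had a log2 fold change of 0.28 ± 0.14, Zeb2 0.07 ± 0.16, Snai1 -0.17 ± 0.19 and Snai2 0.38 ± 0.19. Fn1, the matrix protein fibronectin, had the smallest p of that list, with a log2 fold change of 0.39 ± 0.16. In all 6 of the 9 were higher and 0 passed the adjusted p of edgeR. These genes are also made by stromal cells, whose markers are given above.

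All 7 transcription and splicing regulators were lower, at a median of -0.27 on the log2 scale, and 0 passed the test. Esrp1, which directs epithelial splice choices, had the smallest p of them. It was at 43.8, 51.2 and 34.5 CPM in controls and 20.9, 35.6 and 32.1 CPM in Zip10 cKO libraries. Zip10 cKO library 2 lay just above control 3, and the fold was 0.685 (95% interval 0.486 to 0.965). Elf3, an ETS factor of epithelia, was the regulator with the highest level, at 26.4 TPM. It was at 47.0, 58.9 and 26.9 CPM in controls and 17.0, 41.9 and 28.4 CPM in Zip10 cKO libraries, a log2 fold change of -0.60 ± 0.37 with control 3 inside the Zip10 cKO range. The other regulators lay closer to 0, with Ovol2, a repressor of mesenchymal genes, at -0.37, Grhl1 at -0.27, Grhl2, which activates junction genes, at -0.22, Esrp2 at -0.15 and Ehf at -0.05. Grhl1 had only 12 to 34 counts per library.

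Genes of membrane sorting and the apical surface split. Ap1m2, a subunit of the epithelial adaptor that sorts cargo to the basolateral membrane, was at 26.4, 25.6 and 19.9 CPM in controls and 12.8, 19.5 and 22.2 CPM in Zip10 cKO libraries. Its log2 fold change was -0.40 ± 0.21, and that of Rab25, a recycling GTPase of epithelia, was -0.27 ± 0.16. Prom1, prominin of apical membrane protrusions, went the other way at 0.44 ± 0.30. It was at 142, 148 and 198 CPM in controls and 121, 292 and 248 CPM in Zip10 cKO libraries. Unlike Krt7, Prom1 was lowest in Zip10 cKO library 1 and highest in libraries 2 and 3, so its log2 fold change was 0.73 without library 1 and 0.18 without library 2.

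The polarity genes were all lower by small amounts, 4 of 4, with log2 fold changes from -0.26 to -0.09. Llgl2, a basolateral polarity protein, was at 22.6, 24.4 and 21.7 CPM in controls and 16.2, 19.6 and 21.7 CPM in Zip10 cKO libraries. The groups met at 21.7 CPM without overlapping, and on deposited TPM they overlapped, at 16.6 ± 3.05 and 16.4 ± 2.69 (SD, n = 3 each). On log2(TPM + 1) its log2 fold change was -0.01, in place of -0.26 on counts. Crb3, the Crumbs protein of the apical membrane and the polarity member with the highest level at 16.9 TPM, was at 12.1, 11.7 and 10.1 CPM and at 7.89, 10.4 and 10.8 CPM, a log2 fold change of -0.22 ± 0.17. Pard6b of the Par complex and Patj, a Crumbs complex scaffold, lay at -0.15 ± 0.18 and -0.09 ± 0.18. Of 12 polarity and scaffold proteins made in many cell types, among them Pard3, Scrib and Dlg1, 5 were lower and 7 higher with a median of 0.01. In that list Amotl2, an angiomotin-like junction protein, had the smallest p, at 0.36 ± 0.17, and Magi3, a scaffold, was at 0.28 ± 0.14.

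Membrane proteases and their inhibitors are partners in epithelial barrier upkeep: matriptase, encoded by St14, and prostasin, encoded by Prss8, are held in check by the Kunitz inhibitors Spint1 and Spint2. Prss8 was at 39.2, 34.6 and 34.9 CPM in controls and 18.1, 29.0 and 33.5 CPM in Zip10 cKO libraries. St14 was at 81.4, 84.6 and 75.5 CPM and at 47.3, 72.1 and 69.0 CPM. Both proteases had separate groups, with folds of 0.742 (95% interval 0.535 to 1.03) and 0.780 (95% interval 0.610 to 0.998). Without Zip10 cKO library 1 the log2 fold changes of Prss8 and St14 were -0.21 and -0.19, in place of -0.43 and -0.36. The inhibitor Spint2, at 132 TPM one of the most abundant members, was at 124, 112 and 107 CPM in controls and 69.9, 98.4 and 118 CPM in Zip10 cKO libraries, where library 3 lay among the controls. Spint1 did not share the sign, at 0.04 ± 0.17.

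Claudins had the lowest median of the 8 role groups, -0.37, with 6 of 7 tested claudins lower. Cldn3, a sealing claudin and the most abundant member at 244 TPM, was at 298, 245 and 182 CPM in controls and 117, 187 and 182 CPM in Zip10 cKO libraries. Only Zip10 cKO library 1 was clearly below all controls, while libraries 2 and 3 matched control 3. The fold was 0.672 (95% interval 0.469 to 0.961). Cldn1, another sealing claudin, was at 18.1, 24.1 and 28.1 CPM and at 12.2, 16.7 and 18.2 CPM, a fold of 0.671 (95% interval 0.485 to 0.928). Its groups touched at the lowest control. Cldn23 was at 26.9, 28.0 and 23.5 CPM and at 16.8, 19.6 and 24.2 CPM, a fold of 0.772 (95% interval 0.603 to 0.988), and relative to the other members it was lower in all Zip10 cKO libraries. Cldn8, Cldn7 and Cldn4 had log2 fold changes of -0.42 ± 0.34, -0.24 ± 0.26 and -0.12 ± 0.23.

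Cldn10, an ion-selective claudin, was the 1 tested claudin on the higher side, at 0.18 ± 0.43. It was at 34.1, 21.0 and 48.9 CPM in controls and 29.3, 23.2 and 65.5 CPM in Zip10 cKO libraries. The high libraries were control 3 and Zip10 cKO library 3, which is not the order of the groups. These 2 libraries were also the lowest for Krt19, at 42.1 and 52.6 CPM, and among the 3 lowest for Cldn7, at 59.4 and 64.4 CPM. Calb1, a calcium-binding protein of the luminal epithelium, was at 85.9 and 89.1 CPM in them, 98.9 CPM in Zip10 cKO library 1 and 271 to 344 CPM in the other 3. The gland protease gene Prss29 was at 68.3 and 130 CPM in them, 34.3 CPM in Zip10 cKO library 1 and 1.93 to 4.97 CPM in the others. Summed over 9 gland markers the level was 426 and 625 TPM in those 2 libraries and 194 to 292 TPM in the other 4. Cldn8 was also highest in them, at 12.7 and 13.1 CPM against 4.94 to 10.1 CPM in the other 4. The part of these differences within groups in the group values was not tested.

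The other tight junction genes were lower in 7 of 8 cases, with a median of -0.31. F11r, the junctional adhesion molecule JAM-A, had the smallest p of them. It was at 90.8, 89.0 and 68.2 CPM in controls and 50.4, 73.1 and 67.9 CPM in Zip10 cKO libraries, a log2 fold change of -0.37 ± 0.16, with control 3 below Zip10 cKO library 2. In deposited TPM its groups did not overlap. Lsr, which brings tricellulin to the corners where 3 cells meet, was at -0.29 ± 0.14, and tricellulin itself, Marveld2, at -0.14 ± 0.19. Occludin, Ocln, was at -0.32 ± 0.19, the scaffolds Tjp3 and Cgn at -0.45 ± 0.26 and -0.44 ± 0.28, and Marveld3, a relative of occludin, at -0.20 ± 0.26. Tjp1, the scaffold ZO-1, had the highest level of this role at 50.1 TPM and is also made by endothelium. It was at 154, 228 and 215 CPM in controls and 181, 226 and 199 CPM in Zip10 cKO libraries, a log2 fold change of 0.02 ± 0.16.

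Desmosome genes were the role group nearest 0, with a median of -0.05 and 4 of 6 lower. Jup, plakoglobin, which sits in desmosomes and adherens junctions, was at 77.4, 84.8 and 71.6 CPM in controls and 68.1, 79.8 and 79.1 CPM in Zip10 cKO libraries. Its fold was 0.971, with a 95% interval from 0.820 to 1.15, and its SE on the log2 scale, 0.11, was the smallest of the 45. The desmoplakin gene Dsp, Dsg2 and Pkp3 lay at -0.11 ± 0.27, -0.07 ± 0.14 and -0.05 ± 0.15. Pkp2, a plakophilin also found outside epithelia, went against the rest: 12.6, 11.1 and 12.0 CPM in controls and 17.3, 12.7 and 13.3 CPM in Zip10 cKO libraries. The groups were narrowly separate, and the log2 fold change was 0.28 ± 0.16, or 0.13 without Zip10 cKO library 1. Dsc2, a desmosomal cadherin, stood at 25.1 CPM in Zip10 cKO library 1 and at 7.78 to 12.5 CPM in the other 5. Its log2 fold change was 0.31 ± 0.38 over all libraries and -0.28 without that one.

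By the rule set for members against the rest, a positive log2 fold change larger than its SE, there were 3: Krt7, Prom1 and Pkp2. Dsc2, Cldn10, Spint1 and Tjp1 were also above 0, by less than 1 SE. Relative to the mean of the other tested members in each library, Krt7 was higher by 0.68 on the log2 scale, Pkp2 by 0.49 and Jup by 0.18, and for these 3 the groups did not overlap. On that relative scale Epcam and Cldn23 were lower without overlap, by 0.14 and 0.17, and the other 40 members overlapped. The shares of members were 6.67% higher and 4.44% lower, where 13.2% and 0.777% of all genes, set against the members' mean in the same way, did not overlap. Taking off the members' mean centres the members and shifts every other gene by the members' own difference between the groups. The shares of members and of all genes on this scale therefore cannot be compared. Without that step 6.93% of all genes were higher and 5.78% lower without overlap.

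Other genes of these pathways lay on both sides of 0. Over 6 lists of other adherens junction partners, shared polarity proteins, claudins, keratins, hemidesmosome genes and mesenchymal regulators, 21 of 45 tested genes (46.7%) were lower, against 50.6% of all genes, with a median of 0.01, and 0 passed the adjusted p of edgeR. The lists were not tested against the members. Of 9 adherens junction partners 6 were lower with a median of -0.04, and of 6 other claudins 4 were lower with a median of -0.02. The catenin genes Ctnna1, Ctnnb1 and Ctnnd1, which link cadherins to the cytoskeleton, were at -0.01 ± 0.11, -0.07 ± 0.11 and 0.14 ± 0.10, and the cadherin Cdh3 at 0.42 ± 0.25. In hemidesmosomes, which anchor epithelium to its basement membrane, 3 of 7 genes were lower. Plec was at 0.19 ± 0.12 and Col17a1 at 1.21 ± 0.45. Col17a1 levels were 0.85 to 1.10 CPM in controls and 1.14, 1.75 and 3.73 CPM in Zip10 cKO libraries 1 to 3. Its highest library, Zip10 cKO library 3, was also the one with squamous keratins such as Krt5, given under the other observations. The part of that tissue in the Col17a1 value was not tested. Among uterine luminal markers 7 of 10 were lower with a median of -0.28, and among gland markers 5 of 9 with a median of -0.05. The smallest p values belonged to Ihh, the luminal hedgehog ligand, at -0.55 ± 0.18 and to the gland genes Sox9 at 0.91 ± 0.34 and Ttr at -0.76 ± 0.31.

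**Figure D5:**
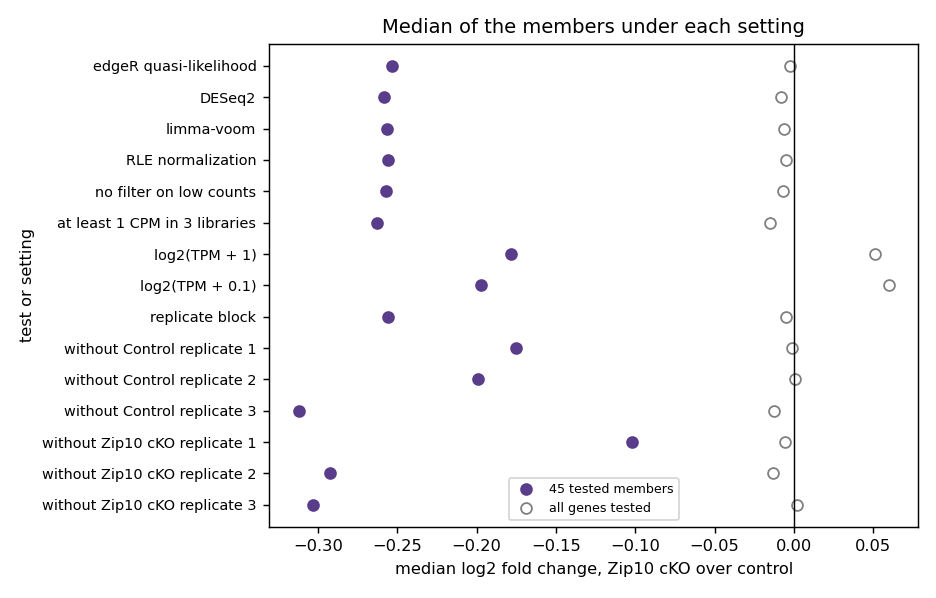
Median log2 fold change of Zip10 cKO over control (x axis) for the 45 members (filled) and for all tested genes (open) under each test, scaling, filter and left-out library (y axis). The members' median is below 0 in every setting drawn, nearest 0 at -0.10 without Zip10 cKO replicate 1.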

How the data were processed

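The 6 libraries were grouped by sample title. Libraries were made from poly(A) RNA with random primers, per the labels' protocols. Tools named in the submitters' processing notes are RSEM 1.3.3, STAR 2.7.10a, fastp 0.23.2 and edgeR 3.38.4, with build GRCm39 (mm39). Their parameters, the annotation and the strandedness were not given in the sources used here, so reads of overlapping antisense genes cannot be told apart. The authors deposited RSEM expected counts, in which shared reads are split between genes, with TPM and FPKM per the file headers; FPKM was not used. Symbols came from GENCODE M21, which matched 91.8% of 56748 gene IDs.

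Expected counts (19643069 to 22809574 per library) were rounded, filtered with filterByExpr (minimum count 10, total 15), scaled by TMM and tested with edgeR 4.0.16's robust quasi-likelihood test in R 4.3.3, two-sided, Benjamini-Hochberg adjusted over 16737 genes. SEs come from the F statistic. List means used log2(CPM + 0.5). On simulated counts of the Zip10 cKO against control comparison (16737 genes, 50 changed at each fold) the test recovered 26% of genes changed 1.5-fold and 76% of those changed 2-fold. Genes with a mean count of at least 50 were changed, at 1.5, 2, 4 and 8-fold together, and there were 15 false calls. Recovery in the real data, where edgeR called 0 genes, may be lower. The targeted gene Slc39a10 had 54.6, 70.4 and 66.2 CPM in controls 1 to 3 against 39.5, 72.5 and 79.8 CPM in Zip10 cKO libraries 1 to 3. Only Zip10 cKO library 1 lay below the controls, and libraries 2 and 3 lay above all of them. Which exons were deleted is not labelled, so its total leaves the genotype unchecked.

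The members and lists were chosen with earlier results of these data known. Values in every library are given for the 6 keratin and adhesion genes, members with separate groups or an unadjusted p under 0.05, and each role's member of smallest p and of highest TPM; other lists are counted, with up to 2 genes of smallest p. Dsc2, Cldn10, Calb1, Prss29, the catenins, Snail and Zeb genes and the ratios were added with their values known. The alternatives were DESeq2 1.42.0, limma-voom and limma-trend (limma 3.58.1), other scalings and filters, a replicate block and leaving out each library. Figures were drawn with matplotlib 3.10.9.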

Additional observations from a re-analysis of the deposited data

How the results depend on the processing

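Under the 14 alternatives 28 members stayed lower and 3 (Krt7, Prom1 and Pkp2) stayed higher in every one, and 13 changed sign when 1 library was left out. No alternative called a member. Genes called over the whole table were 0 with edgeR's quasi-likelihood test (1081 at an unadjusted p under 0.05), 37 with DESeq2 and 15 with no filter on low counts. The members' median ran from -0.31 to -0.10 with 1 library left out, nearest 0 without Zip10 cKO library 1, where 1 member (2.22%, against 4.25% of all genes) had an unadjusted p under 0.05 in place of 7 (15.6%, against 6.46%). That count was 2 without control 1 (4.44%, against 3.91%), 0 without control 2 (against 4.89%), 12 without Zip10 cKO library 2 (26.7%, against 9.01%) and 13 without library 3 (28.9%, against 8.18%). On log2(TPM + 1) the median was -0.18, with 34 of 45 members and 38.8% of all genes lower. Members with separate groups on the lower side were 4 without Zip10 cKO library 1 (8.89%, against 9.25% of all genes) and 13 without library 3 (28.9%, against 12.2%). On the higher side they were 2 (4.44%, against 10.4%) and 1 (2.22%, against 13.8%). In deposited TPM 4 were separate on the lower side (8.89%, against 3.37%) and 2 on the higher side (4.44%, against 9.52%), Krt7 and Pkp2. Separate groups without a library and in TPM were chosen after seeing the data. The replicate numbers are not said to mark a shared litter or day, and deviations of same-numbered libraries correlated at 0.09, 0.25 and 0.18. Not every library correlated best with its own number, as Zip10 cKO library 1 lay closer to control 3, at 0.12. With the replicate block the median was -0.26, 38 members were lower and 0 genes were called. With 3 libraries a group, changes near 1.5-fold were mostly beyond the test.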

Other observations

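Keratins of stratified squamous epithelium, the many-layered lining of vagina and cervix, were present in 1 library. Krt5 was at 13.4 CPM in Zip10 cKO library 3 and at or below 0.132 CPM in the other 5, Krt15 at 13.3 CPM and at or below 0.176 CPM, and Krt13 at 4.32 CPM and at or below 0.238 CPM. Krt14 was at 2.14 CPM there and at or below 0.276 CPM elsewhere. Of further squamous genes looked at after these values were seen, Trp63, the basal cell transcription factor, was at 2.04 CPM in that library and at or below 0.828 CPM elsewhere, Pkp1 at 1.14 CPM and at or below 0.0460 CPM, and Ly6d at 4.02 CPM and at or below 1.57 CPM. Dsg3 and Perp were also highest there, at 5.07 and 34.8 CPM against up to 3.76 and 29.7 CPM elsewhere, while Krt4 and Sfn were not, at 0.0497 and 3.03 CPM. Without that library the members' median was -0.30, against -0.25 with it, and 39 of 45 members were lower.

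Cldn9, a claudin outside the members and singled out after its values were seen, was at 1.32, 1.38 and 0.99 CPM in controls 1 to 3 and 0.0951, 0.460 and 0.497 CPM in Zip10 cKO libraries 1 to 3. The groups did not overlap, and the log2 fold change was -1.80 ± 0.50 (SE, edgeR adjusted p = 0.747) from few counts. Cldn2, a pore-forming claudin, was at 1.38 to 1.76 CPM and 1.93 to 3.47 CPM, a log2 fold change of 0.62 ± 0.32.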
